A study of Homo sapiens with 70 samples.

Results

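Interferon-stimulated genes are the genes that cells switch on after interferon, and 9 of them were followed here in human liver cancer cells. They are IFIT1, IFIT2, IFIT3, ISG15, MX1, OAS1, IFI6, IFI27 and IRF1. They were picked by name, and all 9 were among the 20090 genes in the authors' comparison tables, which give 1 representative transcript per gene. Hep3B and Huh7 are established hepatocellular carcinoma lines. Both were exposed for 24 h to the solvent DMSO, to 5 µM GW3965, to 2 µM sorafenib, or to both drugs, and poly-A RNA was sequenced. GW3965 is an agonist of the liver X receptors, which turn on cholesterol export genes, and sorafenib is a kinase inhibitor used against liver cancer. Each of the 4 Hep3B groups held 9 libraries. In Huh7 the DMSO group and the group labelled GW3965 held 8 each, and the group labelled sorafenib and the group with both drugs held 9 each. Each group comes from 1 line, and the labels do not say which libraries are separate cultures, so the p-values describe only the spread between libraries.

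Type I and type III interferons bind their receptors and activate the kinases JAK1 and TYK2, which phosphorylate STAT proteins. Together with IRF9 these form ISGF3, a complex that binds the interferon-stimulated response element (ISRE) in promoters. Interferon gamma acts through STAT pairs that bind the gamma-activated site (GAS), and IRF1 is a well-known gene with such a site. Hepatocytes respond to both interferon types, and this programme is best known in the liver from hepatitis virus infection.

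The promoter stretches below show letter matches to these elements. RefSeq promoters (GRCh38.p14) were matched for 8 of the 9 genes, all but IFIT2. Each promoter ran from 250 bases before to 50 bases after the start. The ISRE core was searched as GAAA and GAAA with NN (any 2 bases) between them, and the GAS as TTCNNNGAA, on both strands. Sequences are on the gene's strand, 5′ to 3′, and capitals mark the match. ISRE matches are shown for IFIT1 (chr10:89392495-89392541, plus strand), IFIT3 (chr10:89332423-89332499, plus strand), ISG15 (chr1:1013372-1013411, plus strand) and IFI6 (chr1:27672264-27672360, minus strand). They are also shown for IFI27 (chr14:94110616-94110662, plus strand) and MX1 (chr21:41420559-41420588, plus strand). The GAS match is shown for IRF1 (chr5:132490877-132490909, minus strand).
IFIT1: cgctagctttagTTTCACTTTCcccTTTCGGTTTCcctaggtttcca
IFIT3: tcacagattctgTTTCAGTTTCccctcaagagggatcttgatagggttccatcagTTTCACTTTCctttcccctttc
ISG15: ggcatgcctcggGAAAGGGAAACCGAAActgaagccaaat
IFI6: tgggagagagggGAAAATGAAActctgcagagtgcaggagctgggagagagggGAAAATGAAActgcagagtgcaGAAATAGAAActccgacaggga
IFI27: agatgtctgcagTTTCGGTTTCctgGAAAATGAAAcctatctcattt
MX1: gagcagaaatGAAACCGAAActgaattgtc
IRF1: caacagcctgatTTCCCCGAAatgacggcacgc

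The ISRE core was found in 6 of the 8 promoters, against 3.57% of the 35116 promoters in the RefSeq table. IFI6 held 3 matches, the 2 in ISG15 overlapped each other, and the match in MX1 lay past the start of the gene. The GAS letters were found in IRF1, OAS1 and IFI27, 3 of 8, against 7.66% of all promoters, and the IFI27 match overlapped its ISRE matches. For IFI27 the bases just after the start used here were not found in its transcript. All these matches are letters in a window and carry no measurement of binding.

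In the deposited tables the authors set every drug arm against DMSO in the same line with edgeR, and depth per library is unknown. All 3 tables of a line share the same DMSO libraries. In the authors' deposited tables all 10 hepatocyte and hepatoma markers were at 2 CPM (counts scaled to library size) or more, with a summed mean of 15790 to 22142 CPM. Of 7 blood and immune markers, 2 or 3 reached 2 CPM in a table, with a summed mean of 41.4 to 201 CPM that was mostly LYZ, and PTPRC, CD3E and NKG7 stayed at 0.187 to 0.482 CPM in the authors' deposited tables. Of 7 stromal and endothelial markers, 2 or 3 reached 2 CPM, with a summed mean of 10.1 to 98.5 CPM in the same deposited tables. ABCG1, a cholesterol exporter and liver X receptor target, had a log2 fold change of 5.99 with GW3965 and 0.59 with sorafenib in Hep3B, per the authors' deposited tables. In Huh7 the authors' deposited tables listed ABCG1 at 0.75 in the group labelled GW3965 and 3.82 in the group labelled sorafenib. DUSP6, a gene that falls when ERK signalling is blocked, was at 0.33 and -2.40 in those Hep3B groups and at -1.70 and -0.02 in those Huh7 groups, per the authors' deposited tables. In these 2 genes both Huh7 single-drug groups go against their labels, so they are named below by label alone.

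Under DMSO most of the 9 genes were barely expressed. DMSO levels are the median over the 3 tables of a line unless another is named, so a ratio of levels can differ slightly from the fold change. In Hep3B the level implied by the authors' deposited tables was 9.83 CPM for ISG15, 7.48 CPM for IRF1 and 3.50 CPM for IFI6, and 0.254 to 0.638 CPM for the other 6. In Huh7 those 3 genes stood at 10.2, 5.28 and 2.65 CPM, and the other 6 at 0.279 to 1.04 CPM, by the same deposited tables. Per kilobase of transcript, the order in Hep3B under DMSO was ISG15 (15.4 CPM per kb), IFI6 (4.16), IRF1 (2.09), IFI27 (0.397), IFIT1 (0.265), IFIT3 (0.227), IFIT2 (0.183), MX1 (0.159) and OAS1 (0.140), computed from the authors' deposited tables. The order in Huh7 began likewise with ISG15 (15.9 CPM per kb), IFI6 (3.15) and IRF1 (1.47) and ended with IFIT2 (0.0799), from the authors' deposited tables. Spread between libraries was not analysed here, so neighbours in this order cannot be told apart. IFI27 had a nonzero count in 25 of the 70 libraries, OAS1 in 52 and IFIT2 in 64, by the authors' deposited tables, and the other 6 genes in all 70. The tables' lowest mean values lay at -2.45 to -2.18 (log2 CPM), and IFI27 and, in Hep3B, OAS1 lay near that floor in the authors' deposited tables. In Huh7 the DMSO level of IFIT2 (0.279 CPM) was also near it. The place of IFI27 in the order per kilobase comes from a level near the floor divided by a short transcript (644 bases). It therefore does not show that IFI27 was more abundant than the genes listed after it.

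**Figure D1:**
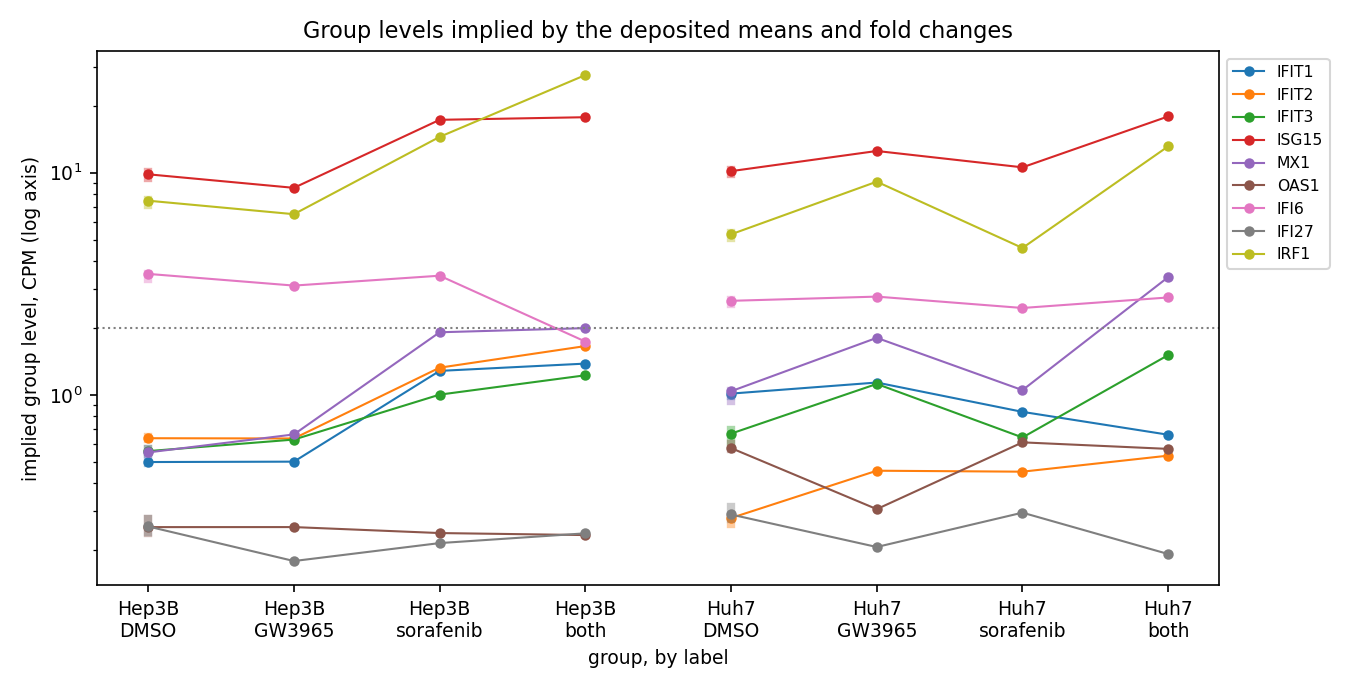
Level of each of the 9 genes in CPM (log axis) in the DMSO and drug groups of each line, implied by the authors' mean and fold change, with no error bars because the tables hold no single libraries; lines only join the groups, pale bars give the DMSO range over the 3 tables of a line, and the dotted line marks 2 CPM. ISG15, IRF1 and IFI6 lie above the other genes in the DMSO groups, and in Hep3B IRF1 reaches 27.5 CPM with both drugs.

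In Hep3B, 6 of the 9 genes rose with sorafenib and the same number with both drugs, while none was called with GW3965. A gene is called here when the authors' edgeR false discovery rate (FDR) is under 0.05. With sorafenib 6 rose and none fell, where 17.3% of all genes rose and 17.4% fell in the authors' deposited table (34.7% called in either direction). With both drugs 6 rose and 1 fell, where 26.0% of all genes rose and 23.6% fell (49.6% in either direction) in the authors' deposited table. With GW3965 0 of 9 were called by edgeR and 0 had an unadjusted p under 0.05, where 6.79% of all genes passed in the authors' deposited table. The median log2 fold change of the 9 was -0.05 with GW3965, 0.82 with sorafenib and 1.14 with both, beside -0.02, 0.09 and -0.06 over all genes in the authors' deposited tables.

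IRF1, a transcription factor that itself drives interferon-stimulated and antigen-presentation genes, carried the largest change with both drugs in Hep3B. Its level implied by the authors' deposited tables was 7.48 CPM under DMSO, 6.50 CPM with GW3965, 14.5 CPM with sorafenib and 27.5 CPM with both. The log2 fold change was 0.95 with sorafenib (edgeR FDR = 1.03e-09) and 1.87 with both, a 3.66-fold rise (FDR = 1.84e-38), in the authors' deposited tables. With GW3965 it was -0.13 (FDR = 0.589) in the authors' deposited table. So IRF1 stood above the DMSO level with sorafenib and higher still with the second drug added. In bulk RNA, more RNA per cell and more cells that express a gene cannot be told apart.

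IFIT1, IFIT2 and IFIT3 are neighbouring genes of a family whose proteins act against viral RNA. In Hep3B all 3 rose with sorafenib and with both drugs. IFIT1 went from 0.498 CPM under DMSO to 1.28 CPM with sorafenib and 1.38 CPM with both, log2 fold changes of 1.38 (edgeR FDR = 1.60e-06) and 1.47 (FDR = 3.21e-07) in the authors' deposited tables. IFIT2 rose by 1.05 (FDR = 0.000214) and 1.39 (FDR = 4.17e-09) in the authors' deposited tables. IFIT3 rose by 0.82 (FDR = 0.0170) and 1.14 (FDR = 6.55e-06), the smallest rises of the 3 IFIT genes, in the authors' deposited tables. With GW3965 alone the 3 were at -0.05, -0.02 and 0.17, each not called, in the authors' deposited table.

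MX1 encodes a GTPase that traps viral nucleocapsids, and ISG15 encodes a ubiquitin-like tag that is joined to newly made proteins. MX1 went from 0.551 CPM under DMSO to 1.91 CPM with sorafenib and 2.00 CPM with both, log2 fold changes of 1.82 (edgeR FDR = 6.10e-08) and 1.86 (FDR = 4.85e-17) in the authors' deposited tables. ISG15, the most abundant of the 9 per length, went from 9.83 CPM to 17.3 and 17.8 CPM, or 0.81 (FDR = 3.90e-05) and 0.82 (FDR = 5.53e-09), in the authors' deposited tables. Both genes stood at similar levels with sorafenib and with both drugs, and the intervals of these differences are given below.

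IFI6, OAS1 and IFI27 did not rise in Hep3B. IFI6 encodes a small membrane protein that limits cell death and virus replication, OAS1 senses double-stranded RNA and switches on RNase L, and IFI27 encodes a mitochondrial protein. IFI6 was at 3.50 CPM under DMSO, 3.10 CPM with GW3965, 3.44 CPM with sorafenib and 1.74 CPM with both, by the authors' deposited tables. Only its fall with both drugs was called, at -1.01 (edgeR FDR = 1.15e-11), against -0.10 and -0.03 with the single drugs in the authors' deposited tables. OAS1 had log2 fold changes of 0.09, -0.21 and -0.12 and IFI27 of -0.52, -0.36 and -0.03, none of them called, in the authors' deposited tables. At under 0.3 CPM these 2 genes are at the low end of what the tables measure, and a change in them may not have been detectable at this depth.

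**Figure D2:**
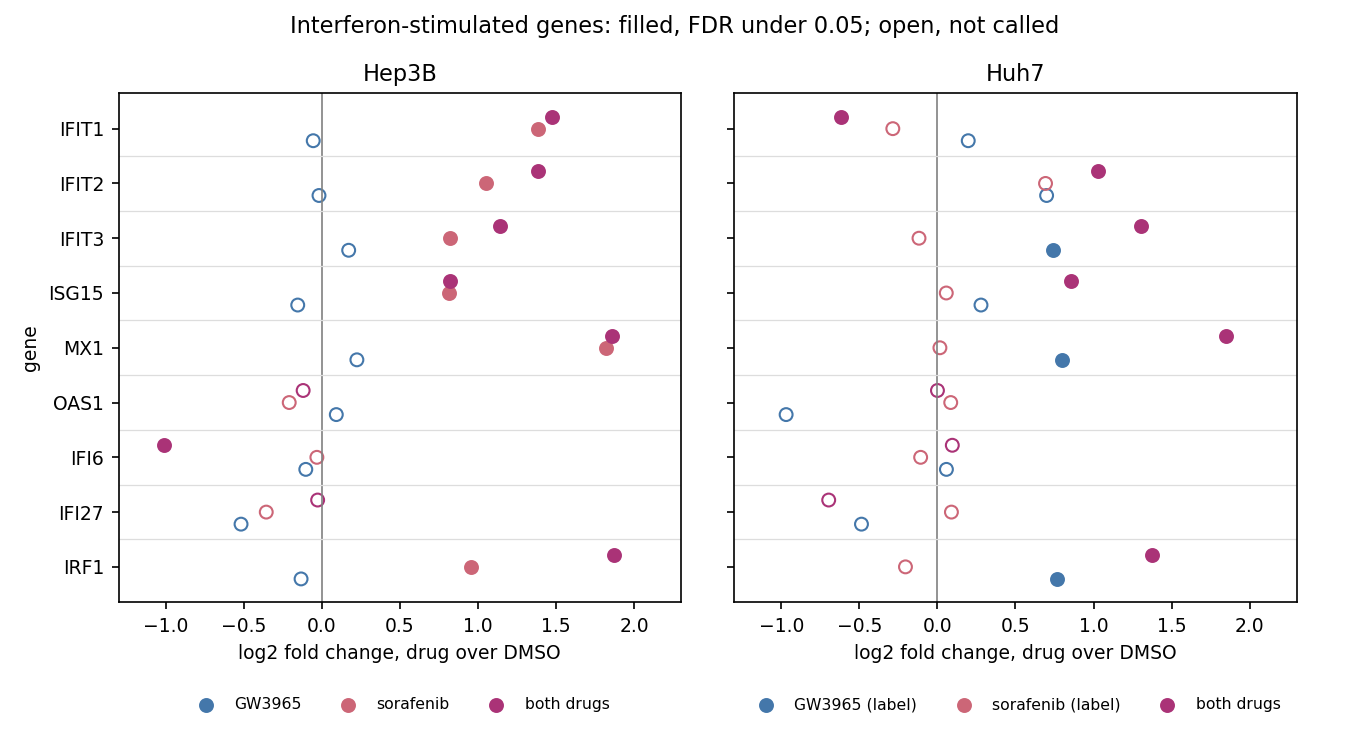
Authors' log2 fold change over DMSO (horizontal axis) for each gene in each drug group of Hep3B and Huh7; filled points had an edgeR FDR under 0.05, and "(label)" marks Huh7 groups named by label alone. In Hep3B the GW3965 points lie between -0.52 and 0.23, and sorafenib and both drugs reach up to 1.87.

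In Huh7 the calls fell in the group with both drugs and the group labelled GW3965. With both drugs 5 rose and 1 fell, where 24.3% of all genes rose and 17.3% fell (41.6% in either direction) in the authors' deposited table. In the group labelled GW3965 3 rose and none fell, where 9.13% of all genes rose and 11.3% fell (20.4% in either direction) in the authors' deposited table. In the group labelled sorafenib 0 of 9 were called by edgeR and 0 had an unadjusted p under 0.05, where 2.05% of all genes passed in the authors' deposited table. The median log2 fold change of the 9 was 0.28 in the group labelled GW3965, 0.02 in the group labelled sorafenib and 0.86 with both, beside -0.07, 0.01 and 0.16 over all genes in the authors' deposited tables.

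IRF1 in Huh7 stood at 5.28 CPM under DMSO, 9.10 CPM in the group labelled GW3965, 4.58 CPM in the group labelled sorafenib and 13.1 CPM with both, by the authors' deposited tables. Its log2 fold changes were 0.77 (edgeR FDR = 4.14e-09), -0.20 (FDR = 0.665) and 1.38 (FDR = 4.52e-08), the last a 2.59-fold rise, in the authors' deposited tables. MX1 rose by 0.80 (FDR = 0.0155) in the group labelled GW3965 and by 1.85 (FDR = 1.10e-08) with both, and was at 0.02 in the group labelled sorafenib, in the authors' deposited tables. The group labelled GW3965 thus lay between DMSO and both drugs for these 2 genes. ISG15 rose by 0.86 with both drugs (FDR = 6.04e-13), and was at 0.28 (FDR = 0.101) and 0.06 in the groups labelled GW3965 and sorafenib in the authors' deposited tables.

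The IFIT genes divided in Huh7. IFIT3 rose by 0.74 in the group labelled GW3965 (edgeR FDR = 0.0375) and by 1.30 with both drugs (FDR = 1.88e-07) in the authors' deposited tables. IFIT2 rose by 1.03 with both drugs (FDR = 0.0288), from 0.261 CPM under DMSO to 0.532 CPM, in the authors' deposited table of that comparison. That DMSO level is near the floor, so the size of this rise is uncertain. IFIT1 fell by 0.61 on the log2 scale with both drugs (FDR = 0.0362), from 1.01 CPM to 0.661 CPM, in the authors' deposited table. IFIT1 therefore went the other way from IFIT2 and IFIT3 in the same libraries. IFI6 stayed at 2.46 to 2.77 CPM in the 4 Huh7 groups, with no call, by the authors' deposited tables. OAS1 was at -0.97 in the group labelled GW3965 (FDR = 0.0565) and IFI27 at -0.70 with both drugs (FDR = 0.364), neither called, in the authors' deposited tables. The remaining Huh7 values in the authors' deposited tables, none called, were 0.20 for IFIT1, 0.70 for IFIT2 and -0.49 for IFI27 in the group labelled GW3965 and 0.00 for OAS1 with both drugs. In the group labelled sorafenib the authors' deposited table listed -0.29 for IFIT1, 0.69 for IFIT2, -0.12 for IFIT3, 0.09 for OAS1 and 0.09 for IFI27. At an FDR under 0.01, the calls of IFIT3 with Hep3B sorafenib, of IFIT3 and MX1 in the Huh7 group labelled GW3965, and of IFIT1 and IFIT2 with both drugs in Huh7 were lost.

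Markers of liver and other cells also differed between these groups. With both drugs 8 of the 10 hepatocyte markers fell in each line and none rose, in the authors' deposited tables. Over all genes, 26.0% rose and 23.6% fell in Hep3B with both drugs, and 24.3% rose and 17.3% fell in Huh7. Of the 7 blood and immune markers, 1 fell and none rose with both drugs in Hep3B, and 2 fell and 1 rose, CD68 by 0.80, in Huh7, in the authors' deposited tables. Of the 7 stromal and endothelial markers, 2 fell and none rose in Hep3B and 2 fell and 3 rose in Huh7 with both drugs, the rises being COL1A1 by 0.99, VWF by 1.16 and CDH5 by 1.76, per the authors' deposited tables, with means of at most 0.322 CPM for VWF and 0.377 CPM for CDH5 in any table. LYZ, the most abundant of the immune markers, was at -2.07 with sorafenib and -2.04 with both in Hep3B, and at -1.85 in the Huh7 group labelled GW3965 and -3.01 with both drugs, as the authors' deposited tables list. The part of these genes in the interferon-stimulated values was not tested.

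Whether the drugs together differed from a single drug was tested by an approximate comparison of fold changes. A standard error was worked back from each p-value the authors deposited. The errors of the 2 comparisons were combined as the root of their summed squares, and p-values were adjusted over all genes tested. Of ISG15, IFI6 and IRF1, the 3 genes at a mean of 2 CPM or more, all 3 differed between both drugs and GW3965 in Hep3B, where 63.0% of such genes did. Between both drugs and sorafenib, 2 of 3 differed, where 30.4% of genes did. In Huh7, 1 of 3 differed from the group labelled GW3965 (29.0% of genes) and 2 of 3 from the group labelled sorafenib (46.0% of genes). In the test over all 20090 genes, which takes in the other 6 members, 7 of 9 differed between both drugs and GW3965 in Hep3B (38.8% of genes) and 2 of 9 between both drugs and sorafenib (16.6% of genes). In Huh7 that test called 1 of 9 against the group labelled GW3965 (15.7% of genes) and 4 of 9 against the group labelled sorafenib (26.5% of genes).

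IRF1 rose further with both drugs than with sorafenib alone in Hep3B, by 0.92 (95% interval 0.52 to 1.31, adjusted p = 0.00011). IFI6 was lower with both drugs than with sorafenib, at -0.98 (-1.52 to -0.44, adjusted p = 0.00303), and lower than with GW3965, at -0.91 (-1.34 to -0.48, adjusted p = 8.26e-05). No difference between both drugs and sorafenib was called for the rest of the genes that rose. The estimate was 0.01 for ISG15 (interval -0.43 to 0.45), 0.04 for MX1 (-0.74 to 0.81) and 0.09 for IFIT1 (-0.66 to 0.84). It was 0.33 for IFIT2 (-0.36 to 1.02) and 0.32 for IFIT3 (-0.43 to 1.07). These intervals are wide enough to hold a further rise of the size seen for IRF1 in IFIT2 and IFIT3.

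In Huh7 ISG15 was higher with both drugs than in the group labelled GW3965, by 0.58 (95% interval 0.24 to 0.91, adjusted p = 0.00453). For IRF1 that difference was 0.61 (0.07 to 1.14, adjusted p = 0.0780) and for MX1 1.06 (0.27 to 1.85, adjusted p = 0.0549), so neither was called. IRF1 was called once a correlation of 0.5 was assumed from the shared DMSO libraries, an assumption that shrinks the error of every gene. Against the group labelled sorafenib, ISG15 was higher by 0.80, IRF1 by 1.58, MX1 by 1.83 and IFIT3 by 1.42, each called, the last 2 in the test over all genes.

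**Figure D3:**
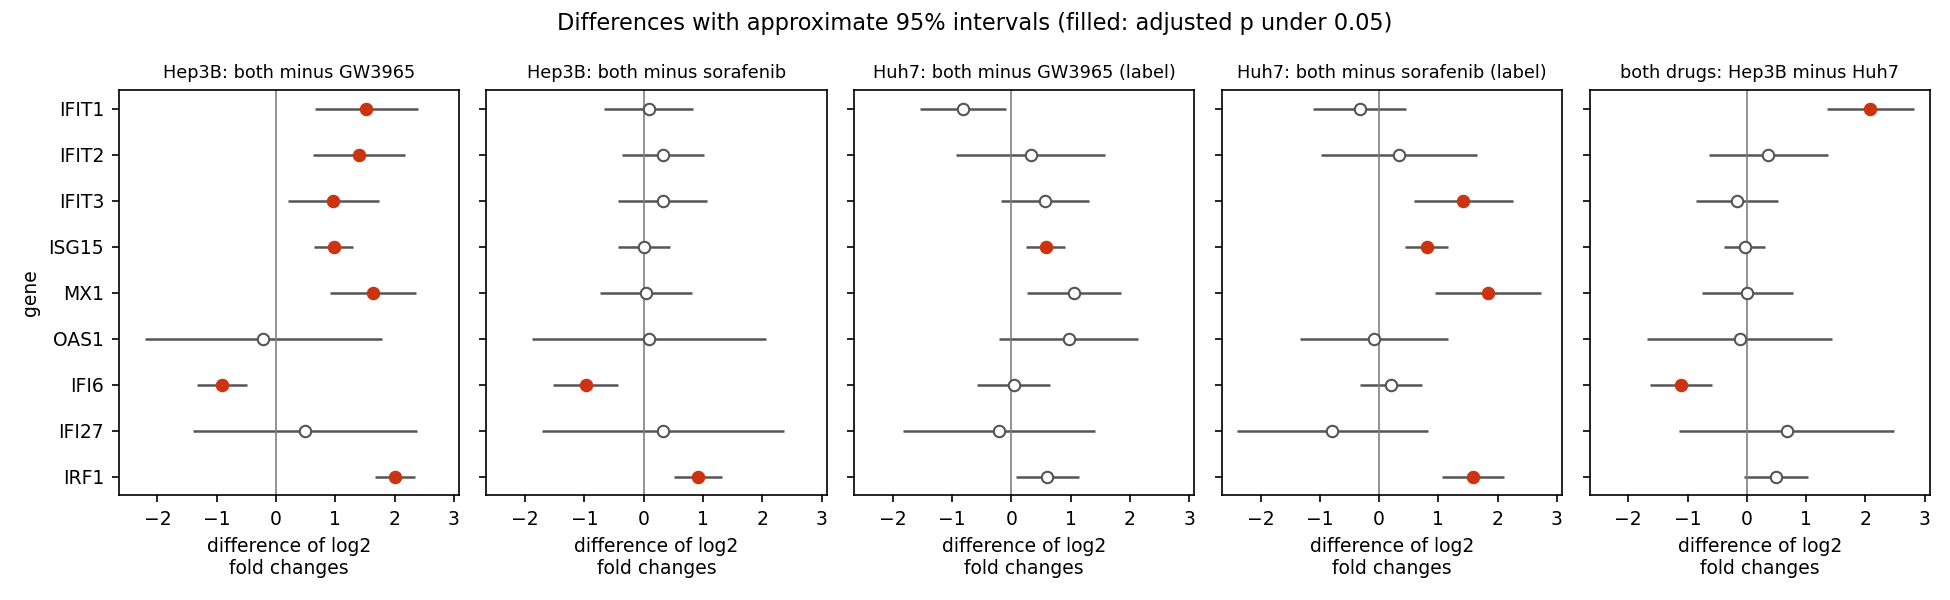
Difference between log2 fold changes for each gene, with its 95% interval, for both drugs against each single drug and for Hep3B against Huh7; errors were worked back from the authors' p-values. The IRF1 and IFI6 intervals for both drugs against sorafenib in Hep3B lie off 0, and those of ISG15, MX1 and the IFIT genes cross it.

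The lines were then compared in their response to both drugs. IFIT1 rose in Hep3B and fell in Huh7, a difference of 2.09 (95% interval 1.35 to 2.83, adjusted p = 6.57e-07, approximate test over all genes). IFI6 fell in Hep3B and not in Huh7, a difference of -1.11 (-1.63 to -0.59, adjusted p = 0.000167). These were the only 2 of the 9 called over all genes, where 25.8% of genes were called, and IFI6 was the only 1 of the 3 at 2 CPM or more, where 43.3% were. For ISG15 the difference was -0.03 (-0.38 to 0.31), for MX1 0.01 (-0.76 to 0.77) and for IRF1 0.50 (-0.05 to 1.04, adjusted p = 0.136). A p that misses the threshold does not show that the lines respond alike, and the interval is wider for MX1 than for ISG15. For IFIT2 it was 0.36 (-0.65 to 1.37) and for IFIT3 -0.16 (-0.86 to 0.53).

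**Figure D4:**
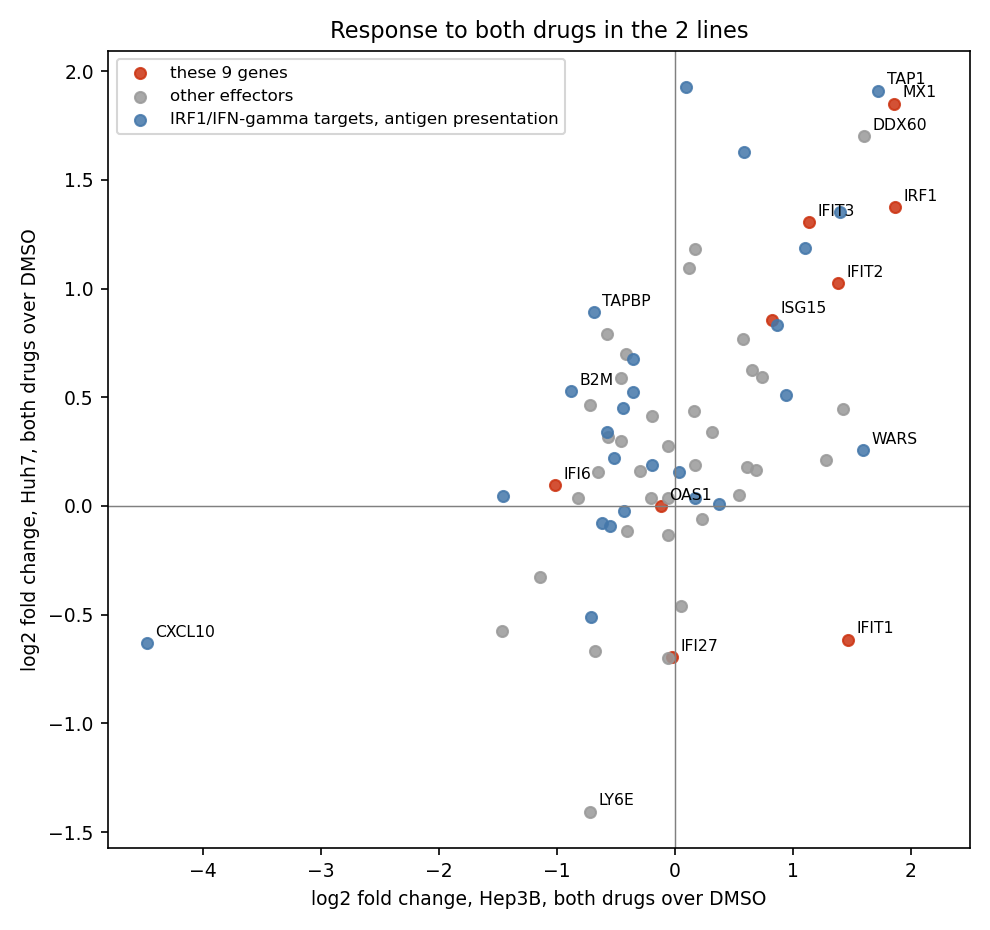
Authors' log2 fold change with both drugs in Hep3B (horizontal axis) and Huh7 (vertical axis) for the 9 genes, other interferon-induced effectors, and IRF1 or interferon-gamma targets with antigen-presentation genes. MX1, IRF1, ISG15, IFIT2 and IFIT3 lie above 0 in both lines, while IFIT1 (1.47 and -0.61) lies to the lower right.

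The rest of the interferon pathway was read from lists of genes by role. Of the type I and type III interferon genes, 3 of 9 had a row in the tables (IFNE, IL29 and IL28B, the last 2 being interferon lambda genes), and their mean was 0.183 to 0.225 CPM, the floor of the tables. None of the 3 was called by edgeR in any of the 6 authors' deposited tables, and 0 had an unadjusted p under 0.05. All 6 receptor chains were at 2 CPM or more, and their counts stand beside 24.3% of all genes higher with both drugs in Huh7, and 26.0% higher and 23.6% lower in Hep3B. With both drugs in Huh7 5 of the 6 rose, among them IFNGR1 at 0.51 and IL28RA, the interferon lambda receptor, at 0.49, while in Hep3B 1 rose and 1 fell, IFNGR1 at 0.28 and IFNAR1 at -0.30, in the authors' deposited tables. With sorafenib in Hep3B the authors' deposited table listed rises of 0.30 for IFNAR2, 0.29 for IL10RB and 0.19 for IFNGR1.

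Of the 6 kinases and STAT or IRF9 components, 2 rose and 2 fell with both drugs in Hep3B, and 3 rose and 1 fell in Huh7, in the authors' deposited tables, where 49.6% and 41.6% of all genes were called in either direction. JAK1 rose by 0.53 in Hep3B and 1.41 in Huh7, and JAK2 by 0.35 and 0.70, in the authors' deposited tables. STAT2 was at -0.57 with both drugs in Hep3B (called) and at -0.10 in Huh7 (not called), while IRF9 was at -0.09 and 0.18 (not called) in the authors' deposited tables. In the approximate test the Hep3B response was below that of Huh7 for 4 of the 6, JAK1, STAT2 and TYK2 among them, where 25.8% of genes at 2 CPM or more were lower and 17.4% higher.

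Among the 7 other interferon regulatory factors, IRF3, which starts interferon production, was lower with both drugs, at -0.62 in Hep3B and -0.47 in Huh7, and at -0.61 with sorafenib in Hep3B, in the authors' deposited tables. IRF7 rose by 0.60 with sorafenib and 1.33 with both in Hep3B, and IRF5 by 1.59 and 2.03, in the authors' deposited tables. In Huh7 none of the 7 rose with both drugs by edgeR (0 at an unadjusted p under 0.05) and 3 fell in the authors' deposited table, where 17.3% of all genes fell. Of 12 sensors and adaptors, 3 rose and 3 fell with both drugs in Hep3B, and 2 rose and 1 fell in Huh7, in the authors' deposited tables. The share called was close to the 49.6% of all genes in Hep3B and below the 41.6% in Huh7. IFIH1 (the RNA sensor MDA5) rose by 0.82 and 1.41, and DDX58 (RIG-I) by 0.37 and 0.83, in the authors' deposited tables. TLR3 rose by 2.37 in Hep3B and was at 0.40, not called, in Huh7 in the authors' deposited tables, but its mean was at most 0.583 CPM in any of them.

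Of 36 other effectors, 9 rose and 8 fell with both drugs in Hep3B and 6 rose and 4 fell in Huh7, with medians of -0.06 and 0.20 beside -0.06 and 0.16 over all genes in the authors' deposited tables. The share called was close to the 49.6% of all genes in Hep3B and below the 41.6% in Huh7, so the list as a whole held no excess of called genes, and the genes below are single values. With sorafenib in Hep3B 8 rose and 3 fell, where 17.3% of all genes rose and 17.4% fell (34.7% in either direction). The median there was 0.11 beside 0.09 over all genes in the authors' deposited table. DDX60, a helicase that helps RNA sensing, rose by 1.60 in Hep3B and 1.70 in Huh7 with both drugs in the authors' deposited tables. UBE2L6, the enzyme that carries ISG15 to its ligase, rose by 1.74 with sorafenib and 1.42 with both in Hep3B in the authors' deposited tables. In Huh7 UBE2L6 was at 0.45, not called, with both drugs and at 0.41, called (edgeR FDR = 0.00223), in the group labelled sorafenib. HERC5, the ISG15 ligase, rose by 1.10 in Huh7 with both drugs and was at 0.12, not called, in Hep3B in the authors' deposited tables. The interferon-induced membrane proteins that hold virus in endosomes went the other way. IFITM2 was at -1.46 and IFITM3 at -1.14 with both drugs in Hep3B, and at -0.57 and -0.32 in Huh7, each called, in the authors' deposited tables. LY6E was at -0.72 in Hep3B and -1.41 in Huh7, both called, in the authors' deposited tables.

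Of 8 brakes on the pathway, 3 rose and 3 fell in Hep3B and 4 rose and 4 fell in Huh7 with both drugs, in the authors' deposited tables, where 26.0% of all genes rose and 23.6% fell in Hep3B and 24.3% and 17.3% in Huh7. SOCS1, which blocks JAK kinases, was at -0.91 and -1.92, and USP18, which strips ISG15 from proteins and quiets the receptor, at -0.43 and -0.57, each called, in the authors' deposited tables. SOCS3 rose by 1.61 in Huh7 and was at 0.12, not called, in Hep3B in the authors' deposited tables. Its mean was at most 1.21 CPM in any of them. Higher with both drugs were IRF2BP2, at 1.06 in Hep3B and 0.83 in Huh7, and PTPN2, at 0.38 and 0.37, in the authors' deposited tables.

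**Figure D5:**
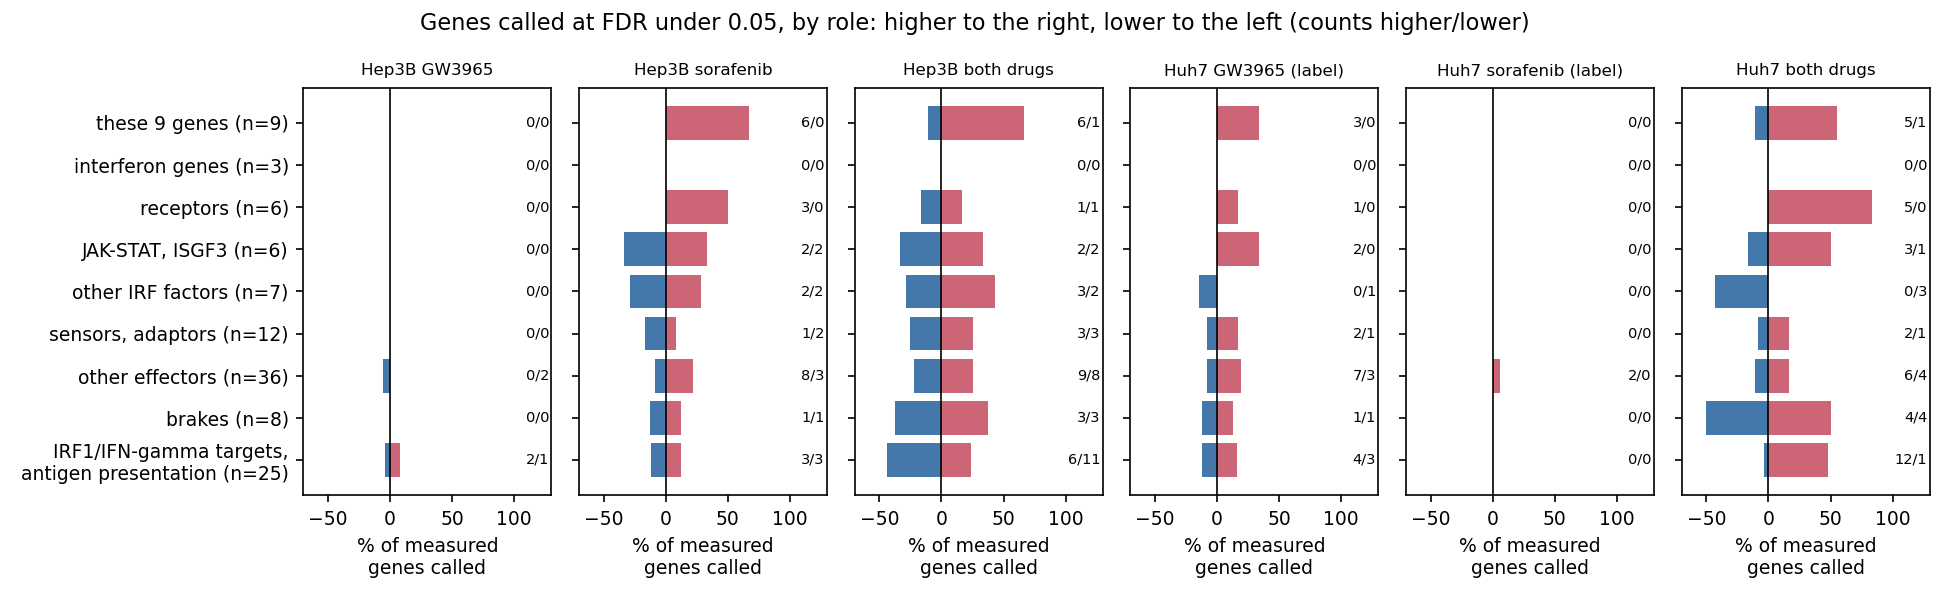
Percent of each list's measured genes called higher (right of 0) or lower (left of 0) at the authors' FDR under 0.05, with the counts as higher/lower, in the 6 comparisons; "(label)" marks Huh7 groups named by label alone. The 9 genes show 6 higher with sorafenib and with both drugs in Hep3B, and no gene of the interferon list is called.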

How the data were processed

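Poly-A RNA-seq libraries (70, in 8 groups taken from the labels) were compared by the authors, and their 6 tables hold 32321 RefSeq transcripts, 20090 of them representative. Per the file headers, the authors deposited for every drug arm against DMSO in the same line, the log2 fold change, the log2 of the mean CPM, the p-value before and after adjustment (FDR) and how many libraries had any count. Per the submitters' processing notes, the authors used edgeR and the builds hg19 and GRCh37. The authors' aligner, counting, normalization, kind of edgeR test and prior count were not given in the sources used here. The new edgeR test that the design foresaw was not run because the tables hold no counts, and the authors' FDR under 0.05 was used. Transcripts of one gene can share reads, so they are not independent values.

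A group's level was computed from the deposited mean and fold change, and divided by the GENCODE v29 transcript length for levels per kilobase. Differences between comparisons used errors worked back from the deposited p-values. They were not allowed below the median of one of 20 expression bins, main results being for genes at 2 CPM or more, with Benjamini-Hochberg adjustment (Python 3.11.15, pandas 2.3.3, numpy 2.4.6, scipy 1.17.1). This step was tested on simulated data drawn with the same worked-back errors, so that test cannot show whether these errors are right. Its planted changes were only in genes at 2 CPM or more, and it did not model shared DMSO libraries. It therefore does not cover the members below 2 CPM. Where RefSeq lists several promoters, the one nearest the transcript's GENCODE start was used.

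All 9 genes are given in each comparison, IFI6 in Huh7 as levels. From each other list up to 4 called genes with the largest absolute change at 2 CPM or more were eligible, and every gene of lists of 8 or fewer, and for each of the 9 genes at 2 CPM or more the 2 genes with the closest fold changes. Some genes of these lists are not reported here. TLR3 falls outside this rule and was chosen after its values were seen. The genes and lists were chosen with earlier results of these data known.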

Additional observations from a re-analysis of the deposited data

Results flagged for a closer look

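The response to both drugs differed between the lines for 4 flagged genes in the approximate test of the difference. Such differences were common, with 43.3% of genes at 2 CPM or more and 25.8% of all genes called. Hep3B minus Huh7 was 2.09 for IFIT1, the one of the 9 genes that was called in opposite directions, and -1.11 for IFI6, on the log2 scale. B2M (-1.41) and TAPBP (-1.57), which build or load HLA class I, also differed, and these 2 were chosen after their values were seen. ICAM1 (-1.50) and WARS (1.34), of the same list as B2M and TAPBP, differed by similar amounts.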

How the results depend on the processing

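No paired analysis was possible because the deposited tables hold no values of single libraries. For the same reason another normalization or count tool and leaving out each replicate were not run. No result reversed its direction, but most alternatives reused the same deposited fold changes, so their direction could not change. Among the checks of the main counts, 13 moved the count and 44 left it about the same. With members limited to 2 CPM or more, or with p-values adjusted over those genes alone, the called members in Hep3B were 2 of 3 with sorafenib (51.5% of such genes by the deposited FDR) and 3 of 3 with both drugs (72.1%). In Huh7 they were 1 of 3 in the group labelled GW3965 (31.4%) and 3 of 4 with both drugs (61.7%). At an FDR under 0.01 the group labelled GW3965 also kept 1. With all genes tested, the differences called were 7 for both drugs minus GW3965 in Hep3B, 4 for both drugs minus the group labelled sorafenib in Huh7 and 2 between the lines. With a correlation of 0.5 assumed from the shared DMSO libraries, 2 were called for both drugs minus the group labelled GW3965 in Huh7. Depth per library is unknown, and IFI27 in both lines, OAS1 in Hep3B and IFIT2 under DMSO in Huh7 lie near the floor of the tables.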

Other observations

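IRF1 and interferon gamma are known to drive antigen presentation, chemokine and other genes. Of 25 such genes, 6 rose and 11 fell with both drugs in Hep3B, with a median log2 fold change of -0.35, and 12 rose and 1 fell in Huh7, with a median of 0.34, in the authors' deposited tables. Over all genes 26.0% rose and 23.6% fell in Hep3B with a median of -0.06, and 24.3% rose and 17.3% fell in Huh7 with a median of 0.16. TAP1, which carries peptides to HLA class I, rose in both lines, by 1.72 and 1.91, in the authors' deposited tables, and no difference between the lines was called (-0.19, 95% interval -0.63 to 0.26). B2M, the light chain of HLA class I, was at -0.88 in Hep3B and 0.53 in Huh7, and TAPBP, which holds HLA to the peptide transporter, at -0.68 and 0.89, each called, in the authors' deposited tables. Of the 14 such genes at 2 CPM or more, 1 was higher, 7 were lower and the other 6 were not called in Hep3B against Huh7. In this approximate test of the response to both drugs, 17.4% of all genes at 2 CPM or more were higher and 25.8% lower. CXCL10, an interferon-induced chemokine, was at -0.82 with GW3965 (called, edgeR FDR = 0.00299) and -4.47 with both drugs in Hep3B, in the authors' deposited tables. In Huh7 CXCL10 was at 1.69 in the group labelled GW3965 and -0.63 (not called) with both. Its mean was low, at 0.510 CPM, in that Huh7 comparison of both drugs. WARS, an interferon-gamma-induced tRNA synthetase, rose by 1.62 with sorafenib and 1.59 with both in Hep3B in the authors' deposited tables.

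The genes closest to the 3 more abundant members over the 6 fold changes were found among 10614 genes. TIGD6 and CLUAP1 lay closest to ISG15 (root mean square difference 0.0738 and 0.0757), ABHD11 and DUSP22 to IFI6 (0.0960 for each) and JMY and SLC41A2 to IRF1 (0.169 and 0.170). These 6 comparisons share DMSO libraries within a line.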
